A study of Mus musculus with 4 samples.

Results

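A set of 10 genes of the Notch pathway were followed in the distal limb bud, the ligands Jag1, Jag2, Dll1 and Dll4, the receptors Notch1, Notch2 and Notch3, and the target genes Hes1, Hey1 and Heyl. They were chosen by name, and every probe set that the platform annotation assigns to exactly 1 of them was used, which gave 19 probe sets for 10 genes, of 45101 probe sets on the array and 18194 genes named by a probe set of 1 symbol. All 19 passed the filter on dim signals. RNA came from E11.25 embryos of the C57BL/6 strain, taken from the autopod, the distal bud region from which digits arise. The 2 Hox13dKO samples carried 2 Hoxa13 null alleles together with 2 copies of HoxDdel, a deletion of Hoxd11, Hoxd12 and Hoxd13, and the 2 wild-type samples carried neither allele. Tissue matching the Hoxd13 domain was cut from fore- and hindlimb buds together, and the labels do not state how many embryos or litters went into a sample. Titles call the samples biological replicates, and p-values measure only the spread between these arrays.

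Notch signalling passes between touching cells. A Jagged or Delta-like ligand on one cell binds a Notch receptor on its neighbour, the receptor is cut by an ADAM protease and then by gamma-secretase, and the freed intracellular part joins RBPJ and a Mastermind protein in the nucleus to switch on repressor genes of the Hes and Hey families. In the mouse limb bud Jag2 is a ligand of the apical ectodermal ridge whose loss leaves digits fused, Jag1 is transcribed in the distal mesenchyme, and Notch activity restrains the step from mesenchyme to cartilage.

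The targeted genes were all lower in Hox13dKO, but Hoxd11 kept a clear signal. Hoxd13 read 5.79 and 9.58 signal units in Hox13dKO against 14540 and 16117 in wild type, Hoxd12 5.23 and 33.5 in Hox13dKO against 1208 and 2171 in wild type, Hoxa13 52.4 and 58.0 in Hox13dKO against 842 and 1463 in wild type, and Hoxd11 348 and 454 in Hox13dKO against 1831 and 1745 in wild type. The Hoxd11 signal in Hox13dKO was thus far above the floor of 14.1 although the gene lies in the deletion, and whether its probes lie in the deleted part is not known here. The 8 limb mesenchyme markers examined (among them Prrx2, Msx1 and Twist1) were all well above the filter on dim signals. All 5 probe sets of the 4 targeted genes were lower on both Hox13dKO arrays than on both wild-type arrays. Values are MAS5 signals, a linear measure of brightness per probe set, and each array had a measured trimmed mean of 500.003. Medians of the arrays came to 66.1 and 81.2 for Hox13dKO, against 65.8 and 85.7 for wild type, so in each genotype the replicate 2 array read higher among dim probe sets. Signals of different probe sets are not comparable as transcript levels, and only differences between genotypes are compared below. These differences are on the log2 scale, Hox13dKO minus wild type, from a limma fit over 27022 probe sets, with a call at a Benjamini-Hochberg adjusted p of 0.05. Of all probe sets tested 0.207% were called and 6.26% had a limma unadjusted p under 0.05. The counts given below for genes and markers are to be read beside these shares. With 2 arrays against 2, an exact two-sided permutation test of a single value cannot go below p = 0.333.

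Jag1 fell in Hox13dKO by all 3 of its probe sets, and these were the only member probe sets past the threshold. The brightest, 1434070_at, read 1223 and 1453 in Hox13dKO against 5508 and 4332 in wild type. The second, 1421106_at, read 540 and 448 in Hox13dKO against 2011 and 1832 in wild type. The dimmest, 1421105_at, read 122 and 188 in Hox13dKO against 724 and 711 in wild type. In each of the 3 the highest Hox13dKO array lay well below the lowest wild-type array, and the gap between genotypes exceeded the gap between replicates. On the log2 scale the differences were -1.87 ± 0.17 (SE, n = 2 per group; limma adjusted p = 0.00778), -1.96 ± 0.17 (adjusted p = 0.00778) and -2.25 ± 0.28 (adjusted p = 0.0343). Jag1 transcript was thus 3.66-fold lower by the brightest probe set (95% interval 2.80 to 4.78), 3.90-fold by the second (2.97 to 5.13) and 4.75-fold by the dimmest (3.06 to 7.38). Over the 4 pairings of a Hox13dKO with a wild-type array, the log2 ratio of the brightest probe set ran from -2.17 to -1.58. Where these probe sets lie along the transcript is not known here, and in bulk tissue fewer cells that transcribe Jag1 and less Jag1 RNA per cell cannot be told apart. Limb mesenchyme markers summed to 24294 and 20984 in Hox13dKO against 22347 and 20643 in wild type. Prrx1 made up the largest part of each sum, at 11938 and 9125 in Hox13dKO against 7952 and 7008 in wild type. Of the 8 markers, 2 had positive and 6 had negative differences. In limma 0 of 8 passed the threshold. A limma unadjusted p under 0.05 was found for 3 (Prrx1 at 0.48, Tbx3 at 0.83 and Tbx2 at -1.29). The brightest Prrx1 probe set had the smallest difference of the 5 tested for that gene, and the other 4 differed by 0.69 to 1.10, all with both Hox13dKO arrays above both wild-type arrays (lowest adjusted p = 0.0727). The part of these shifts in the Jag1 result was not tested. With Hox13dKO replicate 1 left out the brightest probe set differed by -1.75 (adjusted p = 0.0804), and with Hox13dKO replicate 2 left out by -2.00 (adjusted p = 0.0555). The second probe set passed without Hox13dKO replicate 1 (adjusted p = 0.0400) and not without Hox13dKO replicate 2 (0.0709), and the dimmest did not pass without either of them (0.123 and 0.0709). The call of the brightest was also lost with no filter on dim probe sets (adjusted p = 0.321) and with no intensity trend (0.591), settings in which 0 and 1 of all probe sets passed. Over all 15 alternatives the adjusted p of the brightest ran from 1.57e-07 to 0.591.

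**Figure D1:**
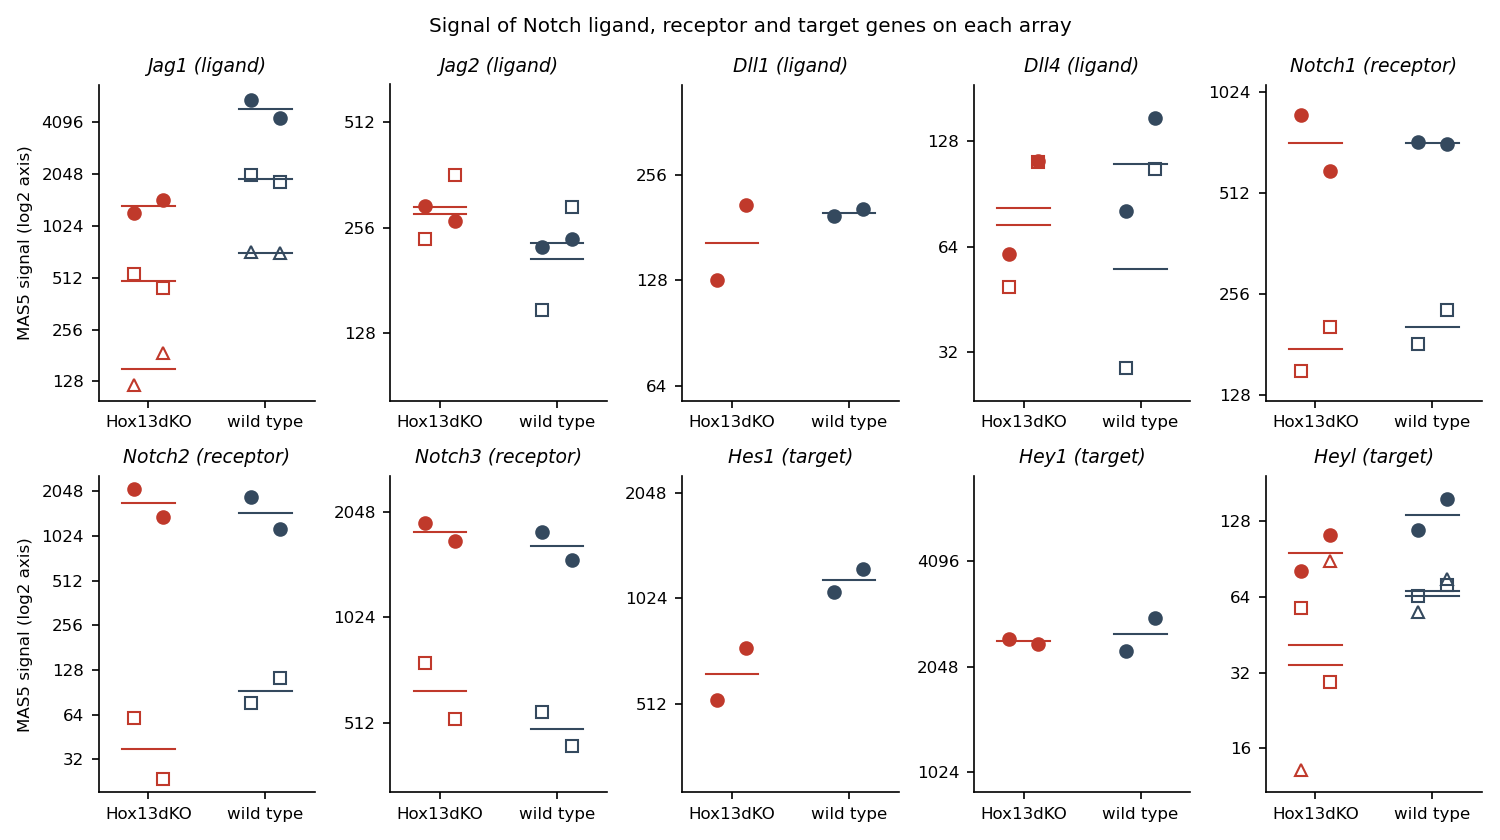
MAS5 signal of each probe set (log2 axis, signal units) on the 2 Hox13dKO and the 2 wild-type arrays, with 1 panel per gene. Symbols of different shape are different probe sets of the gene, filled for the brightest, and short lines are geometric means of 2 arrays; the vertical scale differs between panels. The 3 Jag1 probe sets and Hes1 sit lower on both Hox13dKO arrays, as do the 2 brighter Heyl probe sets and the dimmer Notch2 probe set.

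The window before the Jag1 start is shown because Jag1 was the ligand that fell, and that of Jag2 beside it because Jag2 is its closest relative and did not pass the threshold. Both are the 250 bases before the annotated start, from RefSeq on build GRCm38.p6, printed along the minus strand on which both genes lie, at chr2:137116521-137116770 for Jag1 and chr12:112929496-112929745 for Jag2. Capitals mark ATAAA, the short core that posterior HOX proteins prefer, read on either strand.
Jag1: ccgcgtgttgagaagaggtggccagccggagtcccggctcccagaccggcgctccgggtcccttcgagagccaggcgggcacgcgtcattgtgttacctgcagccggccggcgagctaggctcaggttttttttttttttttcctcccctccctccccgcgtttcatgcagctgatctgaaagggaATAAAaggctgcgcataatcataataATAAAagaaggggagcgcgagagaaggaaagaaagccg
Jag2: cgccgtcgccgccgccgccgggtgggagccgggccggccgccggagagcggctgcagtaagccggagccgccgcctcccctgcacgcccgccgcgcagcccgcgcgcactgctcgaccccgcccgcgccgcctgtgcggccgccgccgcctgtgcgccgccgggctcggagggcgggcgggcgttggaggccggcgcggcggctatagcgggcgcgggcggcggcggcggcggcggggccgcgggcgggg
The core occurs at 64 and 38 bases before the Jag1 start, counted from the first base of the match, and nowhere in the Jag2 window. It is a common string, present in 37.3% of 32851 windows of this length, and G and C make up 57.2% of the Jag1 window against 87.2% of the Jag2 window. The longer HOX13 strings CAATAAA (4.20% of windows) and TCGTAAA (0.478%) and the RBPJ string TGGGAA (21.6%), each searched on both strands, were in none of the 8 windows of the 7 members matched, which are the 4 ligands and the 3 receptors. CAATAAA contains the core, which was added to the search after the windows had been read. Hes1, Hey1 and Heyl were not matched. No binding was measured in these samples.

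The other ligand genes did not pass the threshold in either direction. Jag2, the ligand of the ectodermal ridge, read 295 and 268 in Hox13dKO against 226 and 238 in wild type by its brighter probe set. Both Hox13dKO arrays were above both wild-type arrays there, by a log2 difference of 0.28 ± 0.26 (95% interval -0.31 to 0.87; adjusted p = 0.939). By its other probe set Jag2 read 239 and 362 in Hox13dKO against 149 and 293 in wild type, and the groups overlapped (0.49 ± 0.38). Ectoderm markers, 10 genes including Epcam, Trp63 and Krt14, summed to 9234 and 11642 in Hox13dKO against 9700 and 8722 in wild type, with 7 of 10 positive differences and 0 past the threshold in limma (1 at an unadjusted p under 0.05, Krt8, at -0.61; next lowest in p were Krt5 at 0.53 and Perp at 0.31). Their part in the Jag2 values was not tested.

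Dll1, a Delta-like ligand of somites and muscle precursors, read 128 and 210 in Hox13dKO against 195 and 205 in wild type. The wild-type values fell inside the Hox13dKO range, and the log2 difference was -0.28 ± 0.35 (interval -1.09 to 0.52). Dll4, the ligand of sprouting endothelium, read 61.1 and 112 in Hox13dKO against 80.9 and 149 in wild type by its brighter probe set. Its other probe set read 49.2 and 111 in Hox13dKO against 28.9 and 106 in wild type. In both probe sets the replicate 2 array was the higher one in each genotype, the groups overlapped, and the differences had opposite signs (-0.41 ± 0.52 and 0.42 ± 0.76). Endothelial markers, 10 genes including Cdh5, Kdr and Pecam1, summed to 4369 and 5256 in Hox13dKO against 3692 and 4192 in wild type, with 9 of 10 positive differences and 0 past the threshold in limma (3 at an unadjusted p under 0.05, Cdh5 at 0.77, Kdr at 0.75 and Esam at 0.53). Of the positive ones Emcn, at 0.004, and Tek, at 0.07, were near 0. The negative one was Erg, at -0.36, with both Hox13dKO arrays below both wild-type arrays. The part of endothelial cells in the Dll4 values was not tested.

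The receptor genes showed differences in both directions, all under 2-fold but for a dim Notch2 probe set, with 0 of 6 probe sets past the threshold and 0 at an unadjusted p under 0.05 in limma. Of all probe sets tested 0.207% and 6.26% did so. Notch1, the receptor studied most in the ridge and in vessels, read 874 and 593 in Hox13dKO against 723 and 715 in wild type. The wild-type arrays lay between the Hox13dKO arrays, with a log2 difference of 0.00 ± 0.22 (interval -0.50 to 0.51). By its other probe set, at 151 and 204 in Hox13dKO against 181 and 228 in wild type, Notch1 differed by -0.21 ± 0.32. Notch2, a receptor of broad expression in the mesenchyme, read 2106 and 1373 in Hox13dKO against 1877 and 1147 in wild type, with the replicate 1 array the higher one in each genotype (0.21 ± 0.27, interval -0.41 to 0.84). A much dimmer Notch2 probe set read 60.4 and 23.5 in Hox13dKO against 76.4 and 113 in wild type. There the groups did not overlap and the sign was opposite, at -1.30 ± 0.66 (adjusted p = 0.871), so the probe sets of Notch2 disagree and neither passed.

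Notch3, the receptor of mural cells around vessels, read 1906 and 1686 in Hox13dKO against 1786 and 1494 in wild type by the brighter probe set, whose probes can bind more than 1 transcript. Its other probe set read 759 and 525 in Hox13dKO against 550 and 439 in wild type. The groups overlapped in both, with differences of 0.13 ± 0.16 (interval -0.23 to 0.50) and 0.36 ± 0.24 (-0.19 to 0.91). Mural cell markers summed to 5458 and 5502 in Hox13dKO against 3871 and 2882 in wild type, mostly from Pdgfrb and Acta2. Of the 5 mural genes tested 4 had positive differences and 0 passed in limma. A limma unadjusted p under 0.05 was found for 2 of them (Acta2 at 1.17 and Pdgfrb at 0.56). Abcc9 differed by 0.51, and Rgs5 by -0.35 ± 0.66. Kcnj8, a further marker, was too dim to be tested, with 7.86 on 1 Hox13dKO array and 5.47 on 1 wild-type array. The part of mural cells in the Notch3 values was not tested.

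**Figure D2:**
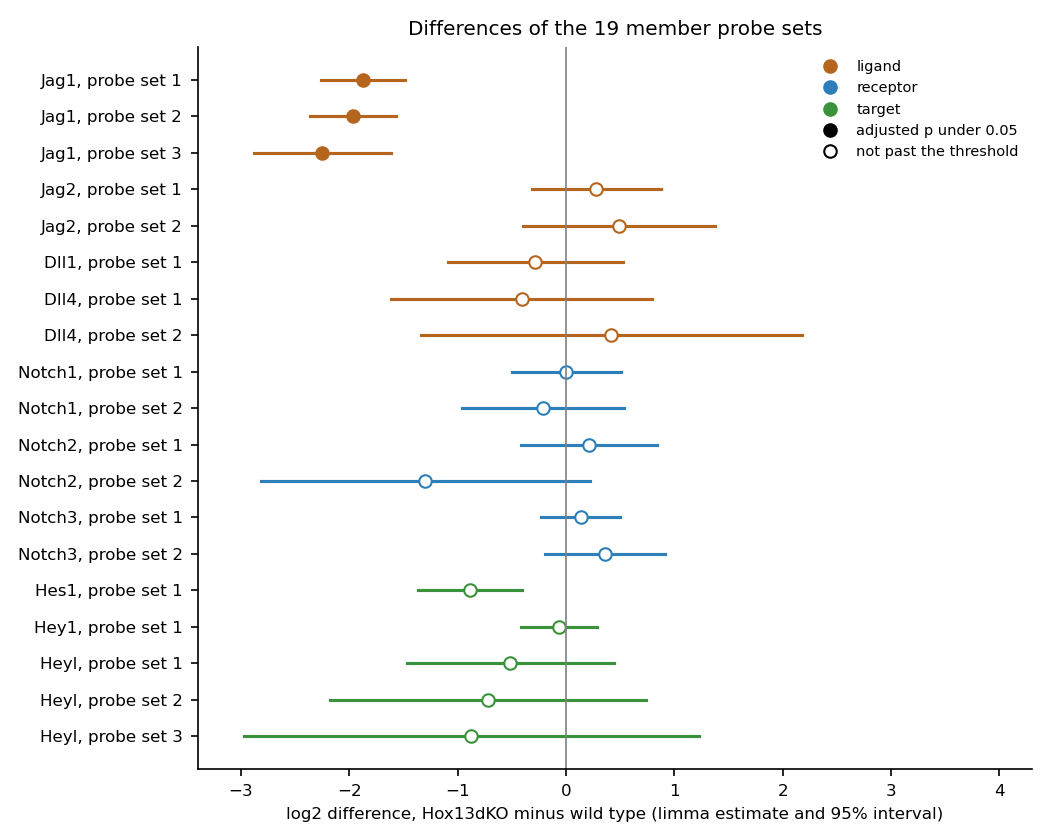
Log2 difference of each of the 19 probe sets (horizontal axis, Hox13dKO minus wild type) with its 95% interval from limma, ordered by role and, within a gene, from bright to dim. Filled points passed an adjusted p of 0.05. The 3 Jag1 intervals lie below -1, and that of Hes1 lies between -1.37 and -0.41, while every other interval includes 0.

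Among the target genes Hes1 had the clearest difference, but none passed the threshold. Hes1, a repressor that Notch and other signals induce, read 527 and 738 in Hox13dKO against 1068 and 1245 in wild type (1418102_at). Both Hox13dKO arrays lay below both wild-type arrays, and the log2 difference was -0.89 ± 0.21 (interval -1.37 to -0.41), with an unadjusted p of 0.00273 and a limma adjusted p of 0.259. The Hes1 difference kept its direction under all 15 alternatives, and ran from -1.13 to -0.64 with an array left out. Whether it passed the threshold depended on the setting. Hey1, a related repressor, read 2456 and 2382 in Hox13dKO against 2273 and 2830 in wild type. The Hox13dKO arrays lay inside the wild-type range, at -0.07 ± 0.15, and the interval of -0.42 to 0.28 bounds the difference to less than 2-fold either way. Heyl, a member of the same family found in mural cells and somites, read 80.8 and 112 in Hox13dKO against 118 and 157 in wild type by its brightest probe set (-0.51 ± 0.41). The second read 57.8 and 29.4 in Hox13dKO against 64.3 and 71.6 in wild type (-0.72 ± 0.63). The third read 13.2, below the floor of 14.1, and 88.7 in Hox13dKO against 55.6 and 75.5 in wild type (-0.87 ± 0.91). The groups did not overlap in the first and second and overlapped in the third, and all 3 intervals include 0. The mural markers given above summed higher in Hox13dKO, mostly through Pdgfrb and Acta2, while Rgs5 differed by -0.35. The part of mural cells in the Heyl values was not tested.

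In all, 3 of the 19 member probe sets were called, all lower and all of Jag1, where 0.0925% of the probe sets tested were called lower and 0.207% in either direction. None were called higher, where 0.115% of all were. Of the 16 probe sets of the other 9 genes 0 were called in limma, and 1, Hes1, had an unadjusted p under 0.05, where 6.26% of all probe sets did. Groups did not overlap in 8 of the 19, against 34.6% of all probe sets tested. Of these 8, 7 were lower in Hox13dKO (Jag1 3 times, Heyl 2 times, Hes1 and the dim Notch2 probe set), against 18.3% of all, and 1 was higher (Jag2), against 16.3%. Without Jag1, 5 of 16 did not overlap, a share near the background. The median log2 difference was -0.14 over those 16 and -0.01 over all probe sets tested. For 7 of the 16 the 95% interval lay within a 2-fold change in either direction. For the other 9 these arrays allow larger changes.

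**Figure D3:**
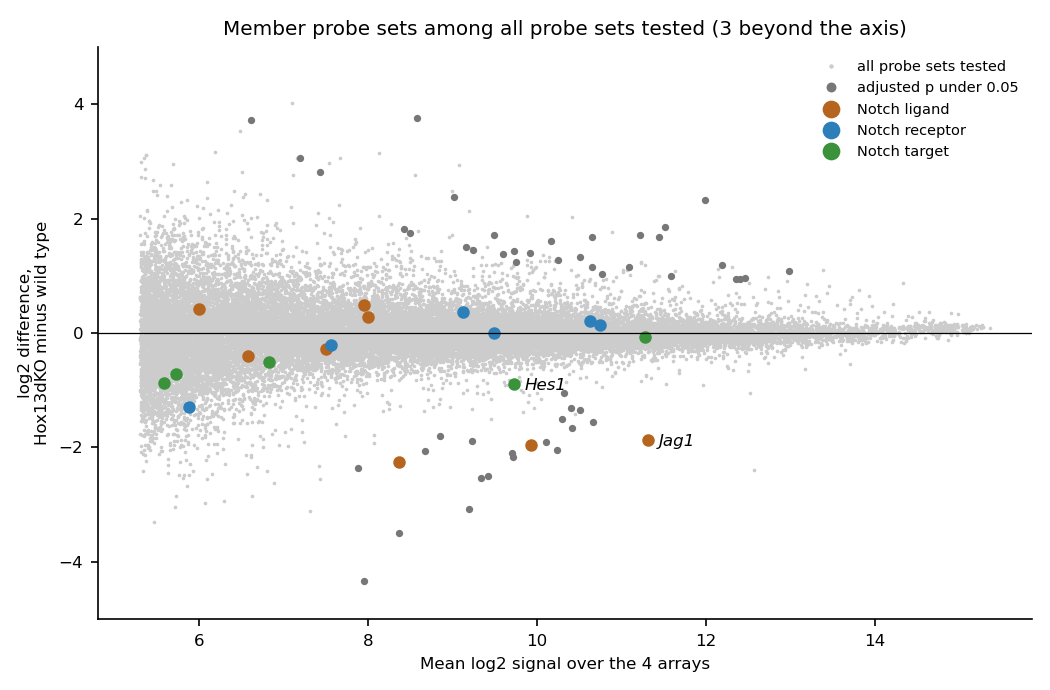
Log2 difference (vertical axis, Hox13dKO minus wild type) against mean log2 signal over the 4 arrays for all 27022 probe sets tested, in grey, with darker points for those past an adjusted p of 0.05 and coloured points for Notch ligands, receptors and targets. The scatter is widest among dim probe sets at the left. The 3 Jag1 probe sets lie at -1.87, -1.96 and -2.25, among the called points, and Hes1, at -0.89, lies at the lower edge of the cloud; 3 probe sets fall outside the axis.

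Differences between Jag1 and each other member were tested only by exact permutation, which cannot reach the threshold with 2 arrays against 2. As a description that largely restates the fall of Jag1, the within-array difference of Jag1 minus Jag2 (brightest probe sets, log2) was -2.15 ± 0.29 (SE, n = 2 per group) and that of Jag1 minus Hes1 was -0.99 ± 0.31.

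**Figure D4:**
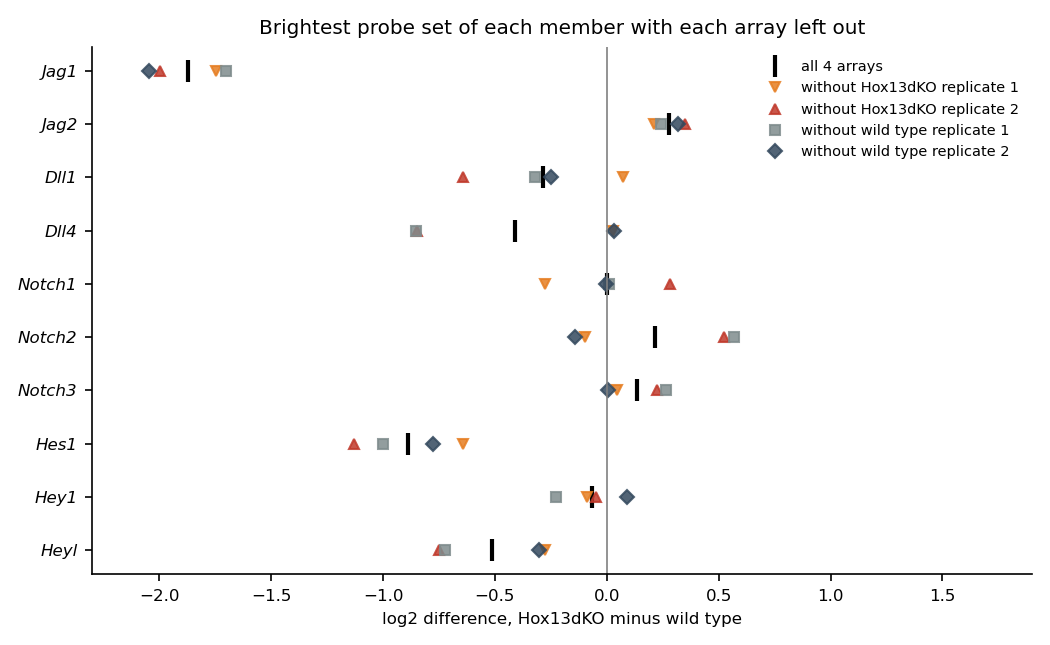
Log2 difference (horizontal axis, Hox13dKO minus wild type) of the brightest probe set of each member with all 4 arrays (black bars) and with each array left out in turn (symbols). Jag1 stays between -2.05 and -1.70 and Hes1 between -1.13 and -0.64, while Dll1, Dll4, Notch1, Notch2 and Hey1 fall on both sides of 0.

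Genes whose 4-array pattern lay nearest to Jag1 were sought among 13071 other genes by the Euclidean distance between log2 signals of the brightest probe set, each centred on its own mean. The 5 nearest were Dpysl3, a cytoskeletal protein of growing neurites (distance 0.27), Grhl1, a grainyhead transcription factor of epithelia (0.28), Ltbp1, which binds latent TGF-beta (0.31), the deleted Hoxd11 (0.37) and Lama1, a laminin chain of basement membranes (0.37). Dpysl3 read 346 and 470 in Hox13dKO against 1970 and 1522 in wild type, and Ltbp1 607 and 538 in Hox13dKO against 2523 and 1810 in wild type. Grhl1 was dim, at 20.3 and 21.7 in Hox13dKO against 84.8 and 83.3 in wild type, and did not pass (adjusted p = 0.586). Lama1, at 48.5 and 66.02 in Hox13dKO against 274 and 154 in wild type, did not pass either (adjusted p = 0.295). Over 4 arrays in 2 groups such a likeness mostly restates the size of the difference between genotypes. Among the members Hes1 came nearest to Jag1, at a distance of 1.08 and place 168.

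The rest of the pathway was examined through 41 further genes with a probe set, of which 38 were bright enough to test. In limma 0 passed the threshold, where 0.207% of all probe sets tested did. An unadjusted p under 0.05 in limma was found for 1, Dlk1, where 6.26% of all had one. The median log2 difference of the 38 was -0.03, with 18 positive and 20 negative, against -0.01 over all probe sets tested. For 30 of the 38 the 95% interval lay within a 2-fold change in either direction. The groups did not overlap for 13 of them, 7 higher and 6 lower in Hox13dKO, near the 34.6% of all probe sets.

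Dlk1, an imprinted transmembrane relative of the Delta ligands that lacks their receptor-binding domain, had the largest difference. It read 1905 and 4017 in Hox13dKO against 830 and 552 in wild type by its brighter probe set, whose probes can bind more than 1 transcript. The log2 difference was 2.03 ± 0.34 (interval 1.25 to 2.81, limma adjusted p = 0.0850). Both Hox13dKO arrays were above both wild-type arrays but differed from each other by more than 2-fold. By a dimmer probe set Dlk1 read 54.4 and 73.9 in Hox13dKO against 48.1 and 14.1 in wild type (1.28 ± 0.82). Muscle progenitor markers summed to 912 and 1430 in Hox13dKO against 647 and 622 in wild type. Of their 6 tested genes 4 had positive differences and 0 passed in limma, with 3 at an unadjusted p under 0.05 (Myog at 3.54, Myod1 at 1.93 and Myf5 at 1.25). For Myog 1 wild-type array lay below the floor. Pax3 differed by -1.16 ± 0.88 by its brightest probe set, where the groups overlapped and 1 Hox13dKO array lay below the floor. Another Pax3 probe set differed by 0.24 ± 0.79, and Pax7 was too dim to be tested. Nerve and Schwann cell markers summed to 724 and 1029 in Hox13dKO against 888 and 859 in wild type, with 0 of 4 past the threshold in limma and 1 at an unadjusted p under 0.05 (Tubb3 at -1.29; Erbb3 differed by 0.42 and Nefl by -0.50). The part of these cell types in the Dlk1 and Dll1 values was not tested. Of the other ligand and receptor genes, the somite ligand gene Dll3 differed by 0.01 ± 0.36, Dlk2 by -0.42 ± 0.41 and the endothelial receptor gene Notch4 by -0.19 ± 0.27.

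Genes that modify or release the signal showed no called difference. Among enzymes that add sugars to the receptor, the O-fucosyltransferase gene Pofut1 differed by 0.02 ± 0.16, the O-glucosyltransferase gene Poglut1 by 0.06 ± 0.18, and the fringe genes Lfng, Mfng and Rfng by -0.09 ± 0.35, 0.26 ± 0.29 and -0.10 ± 0.18. All 5 intervals lay within a 2-fold change. The ubiquitin ligase genes that drive ligand endocytosis read likewise, with Mib1 at -0.07 ± 0.21 and Mib2 at 0.16 ± 0.22, and with wider errors for Neurl1a (0.68 ± 0.34) and Neurl1b (-0.62 ± 0.57). Neurl1a read 207 and 353 in Hox13dKO against 169 and 169 in wild type.

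The 8 protease and gamma-secretase genes tested had differences from -0.18 to 0.25, all with intervals within a 2-fold change. Lowest in p were Aph1a (0.25 ± 0.17) and Psenen (0.18 ± 0.14), both gamma-secretase subunits, and Furin (0.23 ± 0.19), which cuts the receptor precursor. For Aph1a another probe set differed by -0.28. Among 9 genes of receptor trafficking and turnover the lowest p were those of Dtx1, a Deltex ubiquitin ligase (-0.65 ± 0.38), Fbxw7, the ubiquitin ligase subunit that marks the receptor's intracellular part for breakdown (-0.27 ± 0.17), and Nrarp, itself a Notch target that dampens the signal (0.20 ± 0.16). Dtx1 read 102 and 190 in Hox13dKO against 212 and 226 in wild type, and Nrarp 1442 and 1506 in Hox13dKO against 1173 and 1401 in wild type. A second Fbxw7 probe set had the opposite sign, at 0.32. For Nrarp a second probe set differed by -0.01, and the groups overlapped.

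By their brightest probe sets the nuclear complex genes differed least, with all 5 tested between -0.11 and 0.06. Rbpj, the DNA-binding partner of the receptor, read 2121 and 1706 in Hox13dKO against 2205 and 1717 in wild type (-0.03 ± 0.18). The coactivator gene Maml1 differed by -0.07 ± 0.15, Snw1 by -0.11 ± 0.13, the acetyltransferase gene Ep300 by -0.07 ± 0.25 and the corepressor gene Spen by 0.06 ± 0.22. Other Snw1 probe sets had the opposite sign, at 0.20 ± 0.20 and, for the dimmest, 0.67 ± 0.37. In the dimmest both Hox13dKO arrays were above both wild-type arrays. Maml2 was too dim to be tested. Of the other Hes and Hey genes, Hes6 differed by 0.15 ± 0.17, Hey2 by 0.54 ± 0.45 and Hes7, with 1 wild-type array below the floor, by 1.04 ± 0.92, while Hes3 and Hes5 were too dim to be tested.

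**Figure D5:**
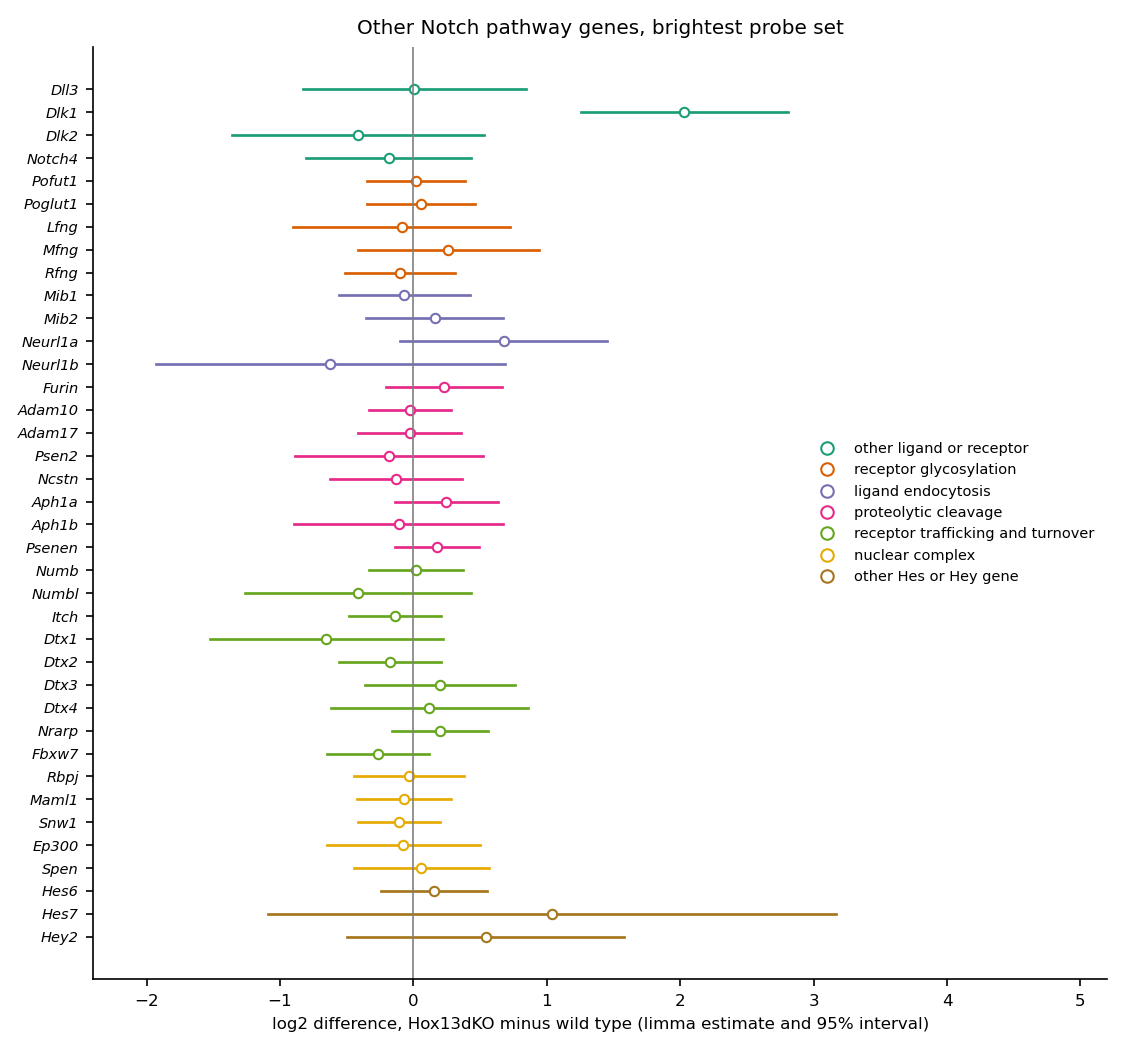
Log2 difference (horizontal axis, Hox13dKO minus wild type) with its 95% interval for the brightest probe set of the 38 other Notch pathway genes tested, coloured by role. None passed an adjusted p of 0.05, and all intervals but that of Dlk1, from 1.25 to 2.81, include 0.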

How the data were processed

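RNA from 2 Hox13dKO and 2 wild-type autopod samples was hybridised to 1-colour Affymetrix arrays, 1 per sample. The deposited values are intensity per probe set on a linear scale, made by the authors with MAS5 per the submitters' processing notes. No MAS5 version is stated in the labels or headers.

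Genes were named through the platform annotation (34958 probe sets with 1 symbol, 932 with several, 9211 with none), and 34754 of the first were found by gene ID in the RefSeq table of GRCm38.p6. The 64 control probe sets were left out. A floor of 14.1 (20th percentile of the values) was set before taking log2, and probe sets with a geometric mean signal of at least 39.6 (40th percentile) were tested. Groups came from the sample titles, and the test was limma 3.58.1 under R 4.3.3 (lmFit, then eBayes with trend, 2 residual and 6.05 prior degrees of freedom, two-sided), adjusted over all probe sets tested. The limma fit was tested on simulated log2 values, and the floor and filter steps were not. No depth exists for arrays, and their number limits the precision.

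The genes, lists and tests were chosen with earlier results of these data known. Where a gene had more than 1 probe set, its brightest stands for it unless stated. Named are all 10 members, the 4 targeted genes, the other pathway genes past the threshold, all of a role class with up to 5 measured genes and otherwise the 3 lowest in p, up to 3 markers per list with the lowest p and any near 0, and the 5 genes nearest to Jag1. Genes outside this rule (examples of a marker list, Pax3, Rgs5, Erg, Rbpj, Spen and Maml2) and the further probe sets of markers and other pathway genes were named after their values were seen. Alternatives covered scaling (quantile or median), the floor (none, or a pseudocount of 16), the filter (none, or the 60th percentile), eBayes (robust, or without trend), the replicate number as a block, leaving out cross-hybridising probe sets, 1 probe set per gene and leaving out each array. Figures were drawn with matplotlib 3.10.9.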

Additional observations from a re-analysis of the deposited data

How the results depend on the processing

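Jag1 kept its direction under all 15 alternatives, by the brightest probe set from -2.05 to -1.70 with an array left out. At -1.87 in each, it did not pass with no filter or with eBayes without trend. The count of member probe sets past the threshold, 3, was 0 with no filter, 0 without trend and 1 with 1 probe set per gene, a setting that tests 1 per member, and it ran from 0 to 4 with an array left out: leaving out Hox13dKO replicate 1 gave 1 and Hox13dKO replicate 2 gave 0, while leaving out wild type replicate 1 gave 4 (with Hes1) and wild type replicate 2 gave 3. Over all probe sets the count of calls, 56, was 0 (3159 at an unadjusted p under 0.05), 1 and 95 in the first 3 of these settings, 214 after median centring, and 20, 11, 306 and 525 with these arrays left out in that order. The cause was not tested. With 1 array left in a group, that array is assumed to vary like the other group. The count of other pathway genes past the threshold, 0, was 1 (Dlk1) after median centring, with 1 probe set per gene and without either wild-type array, so it ran from 0 to 1 with an array left out.

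Arrays of the same replicate number deviated together (r = 0.198 between genotypes over the probe sets tested), but the labels name no shared litter or day and there are only 2 numbers. With the replicate block 4 member probe sets passed (those of Jag1 and Hes1), 1 other pathway gene did (Dlk1), and 418 probe sets in all.

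The direction of differences near 0 was not stable. Notch1 differed by -0.0024 after quantile normalization, and with an array left out the differences ran from -0.64 to 0.073 for Dll1, -0.85 to 0.033 for Dll4, -0.28 to 0.28 for Notch1, -0.14 to 0.57 for Notch2 and -0.23 to 0.090 for Hey1. Dim probe sets, such as those of Dll4 and Heyl, had the widest intervals.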

Other observations

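Several probe sets of pathway genes, picked after their values were seen, departed from the brightest probe set of the same gene. Adam10, the protease that makes the first cut after ligand binding, differed by -0.03 ± 0.13 by its brightest probe set, while a dimmer one read 927 and 828 in Hox13dKO against 431 and 673 in wild type (0.70 ± 0.24, limma adjusted p = 0.601). A dim Pofut1 probe set read 84.3 and 139 in Hox13dKO against 37.1 and 35.9 in wild type (1.57 ± 0.56, adjusted p = 0.652), beside 0.02 ± 0.16 by the brightest. Another dim Pofut1 probe set had the opposite sign, at 70.1 and 65.2 in Hox13dKO against 83.0 and 135 in wild type (-0.64 ± 0.48). The dim probe sets of Pofut1 thus disagree. A Notch4 probe set too dim to be tested read 7.43 and 7.98 in Hox13dKO, both below the floor, against 33.5 and 65.4 in wild type.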
